A study of Mus musculus with 12 samples.

Results

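Transcript clusters that the array's annotation assigns to several gene symbols at once form a group of their own, because a change in such a row cannot be given to 1 gene. Described here are the rows with 2 or more symbols whose mean log2 level in NIH3T3 cells after 96 h of difluoromethylornithine (DFMO) differed from the untreated mean by at least 1, with both 96 h arrays beyond every untreated array on that side. Rows holding a histone, Rpl, Rps or Cdkn1a symbol were left out, which removed 3 rows that met the size and array conditions, 2 of Gm15421 with Rpl22l1 and 1 of 4930567H12Rik with Cdkn1a. This left 44 clusters, 23 higher and 21 lower, of 1621 clusters with several symbols and 35399 clusters in all. All symbols of a row are named together, joined by a slash, and each row is the unit that was measured.

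NIH3T3 is an established line of mouse fibroblasts. Cells were exposed to 1 mM DFMO, added a day after seeding, and the G1 fraction was sorted at 12, 24, 48 and 96 h, with untreated cells as the 0 h sample; the stated purpose was to see how transcripts respond when polyamines run out. Total RNA was measured on 12 whole-transcript Affymetrix MoGene 1.0 ST arrays, 3 of untreated cells, 2 each for 12, 48 and 96 h and 3 for 24 h, which the labels call biological replicates. All groups share the line and the sort. Untreated cells were analysed at 0 h alone, so drug and hours in culture cannot be told apart. The number of arrays limits the precision of every value.

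DFMO is an irreversible inhibitor of ornithine decarboxylase, which makes putrescine, the precursor of spermidine and spermine. Spermine synthase (Sms) makes spermine from spermidine and a propylamine group donated by decarboxylated S-adenosylmethionine. Arrays of this kind read each transcript with short probes, and probes that match paralogous genes, a gene and its processed pseudogene, or overlapping transcripts cannot separate them, so a row then carries several symbols.

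Array medians lay between 4.13 and 4.20 on the log2 scale, and replicate arrays of a group correlated over all clusters with r of 0.990 or more. Fibroblast markers had array medians from 9.31 to 9.64 over 14 measured genes, against 3.57 to 3.70 for 18 leukocyte markers and 3.47 to 3.63 for 16 epithelial and endothelial markers, medians near the floor that background leaves in these values. Single markers departed from their list: Krt14, an epithelial keratin, had mean levels of 8.83 in untreated cells and 7.01 at 96 h, and of the fibroblast markers Dcn (3.72) and Postn (3.88) were near the floor in untreated cells. At 96 h Dcn differed by 4.37 and Thy1 by -2.35; the part of these differences in the rows was not tested. Untreated replicate 3, 12 h replicate 2 and 24 h replicate 3 stood apart: their deviations from their group means correlated over all clusters, with r of 0.364, 0.492 and 0.355 for the 3 pairs. With 2 arrays at 12 h the deviations mirror each other, so they cannot say which of the 12 h arrays was the odd one. Results were therefore also computed without the 3 arrays named.

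The symbol sets were of several kinds. Of 32 distinct symbol sets, 19 among the higher and 13 among the lower rows, 15 named genes that lie apart on 1 chromosome, 10 named genes on different chromosomes, 6 named overlapping genes, and 1 had only 1 symbol in the RefSeq gene table. Pseudogenes appeared in 6 sets. A row had 2 to 18 symbols, 34 rows had exactly 2, and 87 of 88 symbols were found in the table. In 10 clusters the RefSeq accessions of the annotation belonged to just 1 of the symbols. Several sets were represented by more than 1 cluster, 9 sets with 21 clusters in all, and these clusters name the same genes and are not independent. The clusters 10504164 and 10504194 of LOC100861978 / Ccl27b / Gm2506 / Gm13306 / Ccl27a held the same value on every array, which leaves 43 different profiles.

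Promoter windows were read from RefSeq for the rows with the clearest 24 h to 48 h step and the largest positive 96 h difference. Both genes of the row are printed for C1rb / C1ra and 9930111J21Rik1 / 9930111J21Rik2. Top2a and Tubb4b are printed without their partners, of which Hibadh is given by counts and Zfp646 had no window. A window is the 250 bases before the annotated start in GRCm38.p6, printed 5′ to 3′ on the gene's strand. Capitals mark a CCAAT box (CCAAT on either strand, so also ATTGG) and the cell cycle homology region element (TTTGAA or TTCGAA on either strand), motifs known from promoters of genes of G2 and mitosis, with no overlap between these letters.
Top2a, chr11:99024190-99024439, minus strand: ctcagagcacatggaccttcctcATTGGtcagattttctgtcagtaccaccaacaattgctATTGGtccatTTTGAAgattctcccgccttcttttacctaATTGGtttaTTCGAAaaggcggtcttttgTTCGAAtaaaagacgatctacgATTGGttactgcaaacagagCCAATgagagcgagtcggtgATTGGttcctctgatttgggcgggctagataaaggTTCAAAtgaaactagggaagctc
Tubb4b, chr2:25224703-25224952, minus strand: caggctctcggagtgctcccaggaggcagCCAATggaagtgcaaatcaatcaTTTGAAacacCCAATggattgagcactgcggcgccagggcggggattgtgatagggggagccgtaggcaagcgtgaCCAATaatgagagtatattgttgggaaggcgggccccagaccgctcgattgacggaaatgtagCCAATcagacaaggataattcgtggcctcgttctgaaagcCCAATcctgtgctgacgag
C1ra, chr6:124512371-124512620, plus strand: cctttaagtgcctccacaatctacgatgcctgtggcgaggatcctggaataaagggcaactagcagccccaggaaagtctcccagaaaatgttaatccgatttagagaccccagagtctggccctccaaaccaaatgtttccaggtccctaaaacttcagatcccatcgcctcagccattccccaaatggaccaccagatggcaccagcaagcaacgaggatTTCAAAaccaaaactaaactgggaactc
C1rb, chr6:124570180-124570429, plus strand: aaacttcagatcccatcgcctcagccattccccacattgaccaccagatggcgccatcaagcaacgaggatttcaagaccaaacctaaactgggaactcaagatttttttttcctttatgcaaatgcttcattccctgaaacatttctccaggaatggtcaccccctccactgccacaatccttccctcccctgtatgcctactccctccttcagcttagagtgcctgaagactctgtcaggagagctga
9930111J21Rik1, chr11:48979382-48979631, minus strand: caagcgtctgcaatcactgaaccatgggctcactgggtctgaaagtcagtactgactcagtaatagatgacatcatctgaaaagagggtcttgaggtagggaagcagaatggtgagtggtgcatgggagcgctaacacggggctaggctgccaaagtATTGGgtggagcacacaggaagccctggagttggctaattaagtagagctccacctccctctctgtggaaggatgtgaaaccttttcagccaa
9930111J21Rik2, chr11:49051243-49051492, minus strand: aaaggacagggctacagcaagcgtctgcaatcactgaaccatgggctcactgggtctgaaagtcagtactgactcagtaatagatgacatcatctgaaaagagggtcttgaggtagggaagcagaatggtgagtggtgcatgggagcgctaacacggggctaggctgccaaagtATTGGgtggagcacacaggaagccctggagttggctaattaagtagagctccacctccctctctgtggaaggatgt
The Top2a window held 6 CCAAT boxes and 4 of the homology region elements, and the Tubb4b window 5 and 1. The window of Hibadh, which shares the row with Top2a, held 1 and 0. Over all 32851 windows of this length, 33.8% held a CCAAT box and 17.1% a homology region element. Each symbol was counted on 1 side only, and Rbmxl1, named in higher and lower rows, was counted with the higher rows. Its window held 1 CCAAT box and 0 homology region elements. Among symbols with a window (70 of 88), a CCAAT box was found for 40 of 52 in the higher rows and 14 of 18 in the lower rows, and the homology region element for 23 of 52 and 5 of 18. Many of the zinc finger windows in the higher rows are near copies of each other, so these shares count 1 sequence several times, and a match of letters is not a bound site. The letters TTTCCCGC, TTTGGCGC or TTTCGCGC of E2F sites were in 1 of 52 and 0 of 18 windows (1.53% of all windows), and the interferon-stimulated element in 2 of 52 and 2 of 18 (2.98% of all). The higher windows with that element were those of Armcx5 and Gprasp1, identical over 250 bases. The lower ones were those of Apol9a and Apol9b, identical over 231 positions, so each count repeats 1 sequence. Identical windows of Gm21992 and Rbm14 likewise repeat in the lower CCAAT count.

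Genes of 1 row differed widely in how alike their windows were. Windows of 9930111J21Rik1 and 9930111J21Rik2 matched over 233 aligned positions at 100% identity, and those of C1rb and C1ra over 99 positions at 93.9%. Zfp772 and Gm45351 matched over the whole 250 bases at 96.8%, and Rex2 and Zfp600 over 250 at 99.6%. For Top2a and Hibadh, genes on different chromosomes, the best match was 11 positions. Psme2b and Psme2 shared only 12 positions there.

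One of the rows carries a microRNA. Mir92-1 / Mir17hg names the last microRNA of the miR-17-92 transcript, a host RNA cut into several microRNAs that repress genes restraining the cell cycle and apoptosis. Its mature products are shown with the seed, bases 2 to 8, in capitals, from RefSeq.
mmu-miR-17-5p: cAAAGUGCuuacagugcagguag
mmu-miR-18a-5p: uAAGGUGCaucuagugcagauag
mmu-miR-19a-3p: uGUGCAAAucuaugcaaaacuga
mmu-miR-20a-5p: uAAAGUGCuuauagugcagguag
mmu-miR-19b-3p: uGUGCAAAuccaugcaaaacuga
mmu-miR-92a-3p: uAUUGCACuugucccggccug
Among these 6 there were 4 different seeds: miR-17 and miR-20a share AAAGUGC, miR-19a and miR-19b share GUGCAAA, and miR-18a and miR-92a each have their own. The array reads the precursor or host RNA, not the mature products.

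The size and timing of the changes are described first, since the 96 h difference chose the rows and is no test. Over all 35399 clusters, 1.84% were higher and 2.12% lower at 96 h by the same size and array conditions. The shares were 1.48% and 1.42% of the several-symbol clusters, before rows were left out, and 2.35% and 2.89% of the 1-symbol clusters. Higher rows differed from untreated cells by 1.00 to 2.27 log2 units at 96 h, with a median of 1.23, and lower rows by -2.21 to -1.01, with a median of -1.14. Every one of the 44 rows had its largest difference at 96 h.

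At 48 h the median difference was 0.53 for the higher and -0.50 for the lower rows, 42.2% and 43.9% of the 96 h difference (medians over rows). Among the higher rows, 16 of 23 had both 48 h arrays above all untreated arrays, against 14.1% of all clusters, and 20 of 21 lower rows had both below, against 25.3%. The 48 h difference shares its untreated arrays with the rule and is given as a description. At 24 h the counts were 5 of 23 (4.23% of all clusters) and 6 of 21 (9.83%), and at 12 h 3 of 23 (6.45%) and 4 of 21 (12.7%). Medians at 12 h and 24 h stayed within 0.10 of untreated cells for the higher rows and were -0.04 and -0.18 for the lower rows.

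**Figure D1:**
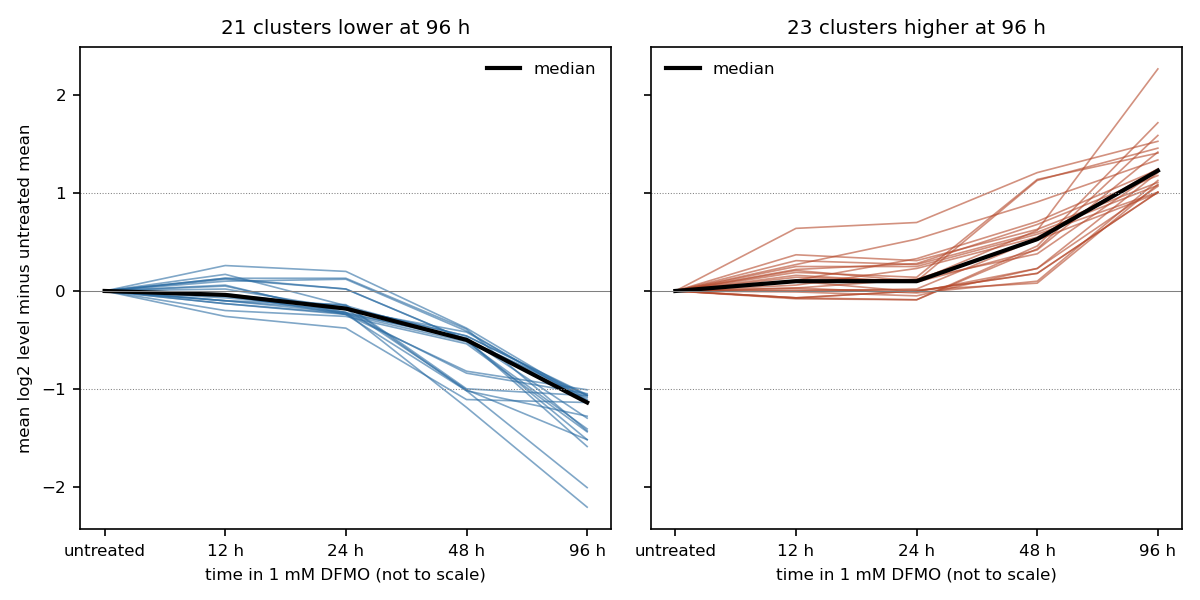
Mean log2 level minus the untreated mean (vertical axis) of each of the 44 clusters at 12, 24, 48 and 96 h of DFMO (horizontal axis, not to scale), lower rows left and higher rows right, 1 thin line per cluster, the thick line their median and the dotted lines a difference of 1. The medians stay near 0 to 24 h, pass -0.50 and 0.53 at 48 h and reach -1.14 and 1.23 at 96 h. Single lines depart earlier, the furthest being Psme2b / Psme2 at 0.64 at 12 h and 0.70 at 24 h.

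Rows just inside and just outside the size limit differed little. Armcx5 / Gprasp1 (1.005), Gm14326 / Gm14403 (1.006) and 1 of the Ccl27 rows (1.012) lay just inside on the higher side, and Gm10509 / Zfp983 / Zfp51 (0.997), Ubr3 / Vamp2 (0.994) and 4933434E20Rik / 1700094D03Rik (0.967) just outside. On the lower side Tdg-ps2 / Tdg (-1.010 and -1.055) and Ahcy / Gm4737 (-1.057) were inside, and Tdg-ps2 / Tdg (-0.971 and -0.957) and Pwwp3a / Rdh11 (-0.962) outside. With each untreated or 96 h array left out in turn, 26 of 44 rows kept a difference of at least 1 every time. Without untreated replicate 3, 40 of 44 did, and without 96 h replicate 2 the number was 33.

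The step from 24 h to 48 h was tested with limma over all clusters. Its estimate uses neither the untreated nor the 96 h arrays, but its error pools the spread within all 5 groups, arrays of the rule included, so the test is not fully independent of the rule. In this comparison 0.613% of all clusters were called at an adjusted p under 0.05, 0.147% as higher and 0.466% as lower, and of the several-symbol clusters 0% and 0.247%. Of the chosen rows 0 of 23 rose and 4 of 21 fell. The 4 were both clusters of Top2a / Hibadh and both of Zfp646 / Tubb4b. Each of the 44 estimates had the sign of its 96 h difference, as had 96.6% of all clusters that met the rule as higher and 95.6% of those that met it as lower. Median steps were 0.34 for the higher rows (0.40 for all higher clusters meeting the rule) and -0.52 for the lower rows (-0.53 likewise). At an unadjusted p under 0.05 there were 13 of 23 and 18 of 21 rows, among 3188 of 35399 clusters. The 4 calls ended when the rule's arrays were kept out of the error as well: fitted to the 12, 24 and 48 h arrays alone, limma called 31 of 35399 clusters and 0 of the 44 rows, with adjusted p from 0.0662 to 0.107 for these 4. Fitted to the 24 h and 48 h arrays alone it called 0 of 35399, with adjusted p from 0.111 to 0.157 for the 4. They also ended when either 48 h array was left out. With the 3 arrays that stood apart left out, 1 call remained, 1 of the 2 Top2a / Hibadh clusters.

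Between 12 h and 24 h, limma called 0 of 35399 clusters, with 823 at an unadjusted p under 0.05. Steps of the chosen rows ran from -0.33 for Mir92-1 / Mir17hg to 0.26 for Gm8615 / Gnpda1, and 1 of 44 had an unadjusted p under 0.05.

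**Figure D2:**
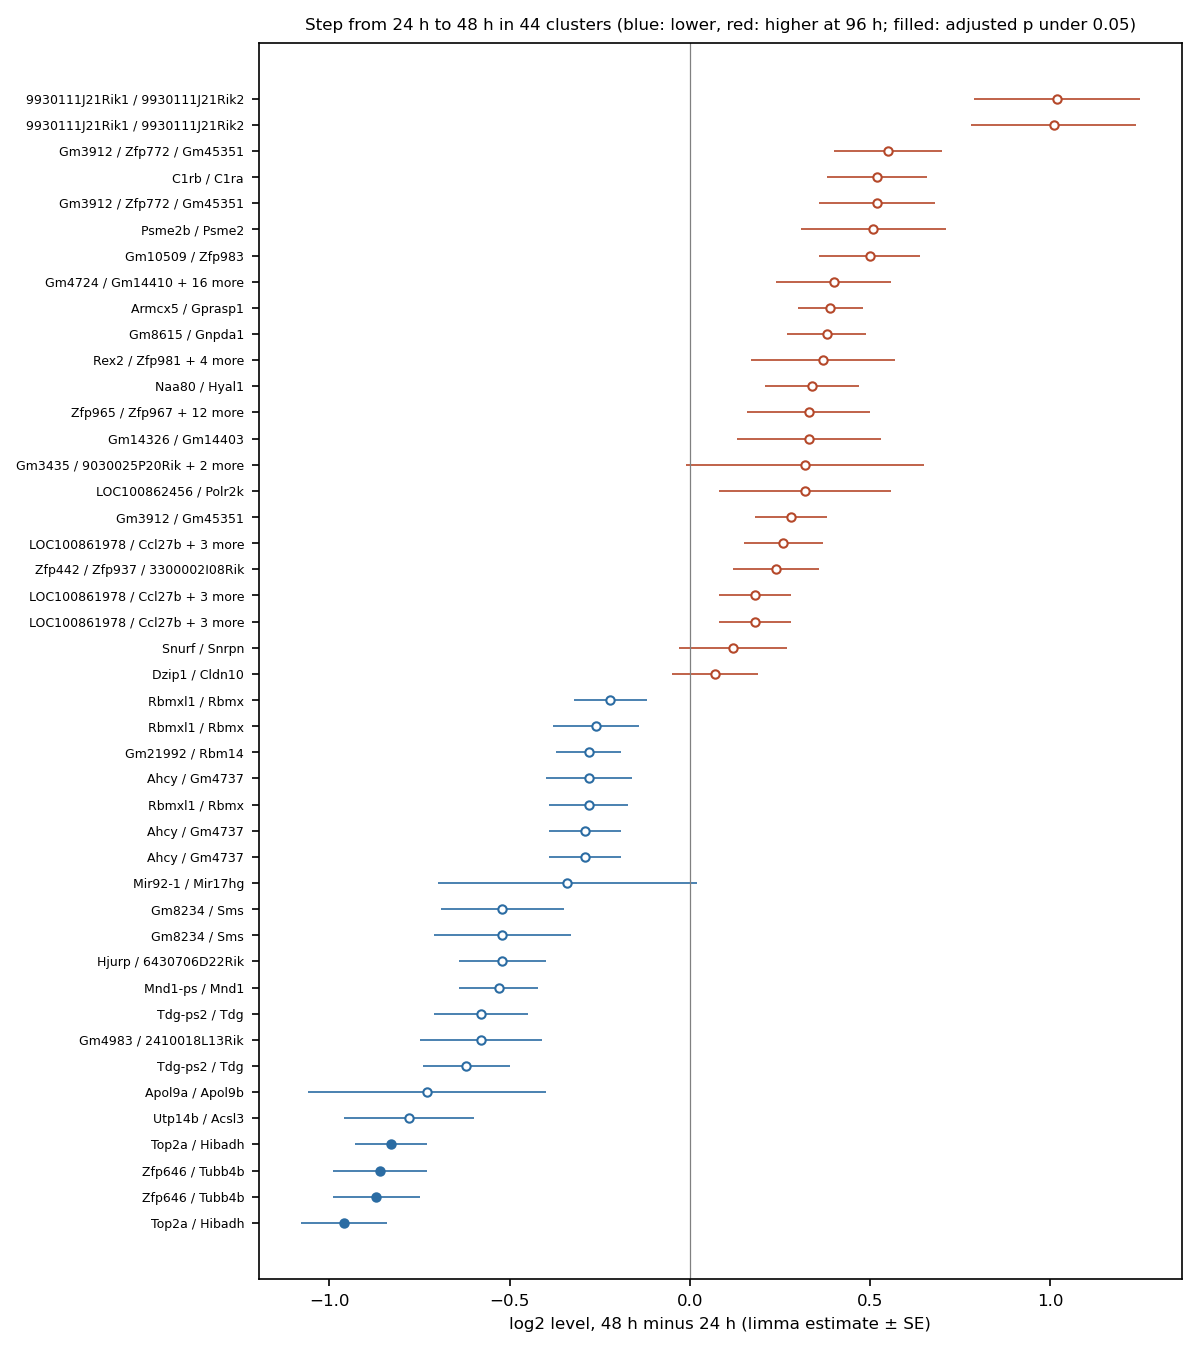
Estimated log2 step from 24 h to 48 h with its limma standard error (horizontal axis) for each of the 44 clusters (vertical axis), blue for rows lower and red for rows higher at 96 h, filled where the adjusted p was under 0.05. Only the 4 clusters of Top2a / Hibadh and Zfp646 / Tubb4b are filled, and the 9930111J21Rik clusters have the largest rises, 1.02 and 1.01.

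Rows that name a gene of cell division or recombination were grouped after their values were seen. They held all of the calls among the chosen rows, but which gene of a row changed cannot be told. The group had 6 clusters of 4 symbol sets, with a median step of -0.84 from 24 h to 48 h, and 4 of the 6 passed the test. Top2a encodes DNA topoisomerase II alpha, which untangles and condenses chromosomes in mitosis, and Hibadh a mitochondrial enzyme of valine breakdown. In both clusters of Top2a / Hibadh the annotation held no RefSeq accession of either gene. Log2 levels of the cluster 10394731 of Top2a / Hibadh were 7.10, 7.27 and 7.29 in untreated cells, 7.18 and 7.36 after 12 h, 7.24, 6.88 and 6.87 after 24 h, 6.06 and 6.01 after 48 h and 4.96 and 5.08 after 96 h. Both 48 h arrays lay below every earlier array, and both 96 h arrays were lower again. Its difference at 96 h was -2.21, a 4.61-fold lower level, and between 24 h and 48 h the level fell by 0.96 ± 0.12 (SE, limma adjusted p = 0.0133). The second cluster, 10408329, had 7.13, 7.21 and 7.14 on the untreated arrays, 7.01 and 7.35 on the 12 h arrays, 7.09, 6.95 and 6.91 on the 24 h arrays, 6.13 and 6.17 on the 48 h arrays and 5.69 and 5.60 on the 96 h arrays. It showed the same order of the groups, fell by 0.83 ± 0.10 in that step (SE, limma adjusted p = 0.00969) and differed by -1.52 at 96 h.

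Tubb4b encodes a beta-tubulin, a building block of microtubules, and Zfp646 a zinc finger protein. The cluster 10480628 of Zfp646 / Tubb4b had levels of 10.28, 10.40 and 10.15 on the untreated arrays, 10.17 and 10.28 on the 12 h arrays, 10.13, 10.21 and 10.02 on the 24 h arrays, 9.17 and 9.34 on the 48 h arrays and 9.17 and 8.83 on the 96 h arrays. All arrays to 24 h were above 10, and the 48 h and 96 h arrays were below it with no overlap. Between 24 h and 48 h this row fell by 0.87 ± 0.12 (SE, limma adjusted p = 0.0194). The other cluster, 10519488, had 10.24, 10.37 and 10.13 without drug, then 10.08 and 10.22 (12 h), 10.07, 10.23 and 10.01 (24 h), 9.17 and 9.33 (48 h) and 9.40 and 8.96 (96 h). It too split at 10 between 24 h and 48 h, and fell by 0.86 ± 0.13 in that step (SE, limma adjusted p = 0.0302). Differences at 96 h were -1.28 and -1.07, so most of the fall was present at 48 h. The annotation's RefSeq accessions in both rows were those of Tubb4b. The call was lost for both without 24 h replicate 1 (adjusted p = 0.0553 and 0.0721) or replicate 2 (0.0653 and 0.0937), and for 10519488 also without replicate 3 (0.067).

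Hjurp, the chaperone that loads the centromeric histone variant CENP-A, shared a row with 6430706D22Rik. Levels of Hjurp / 6430706D22Rik were 7.97, 8.08 and 8.16 without drug, then 8.11 and 8.28 (12 h), 8.23, 8.09 and 8.28 (24 h), 7.76 and 7.61 (48 h) and 6.45 and 6.83 (96 h). The 48 h arrays were below all earlier ones and the 96 h arrays lower again. The step at 48 h was -0.52 ± 0.12 (SE, limma adjusted p = 0.123) and the 96 h difference -1.43. Mnd1, which works with the recombinases of meiosis, appeared with its pseudogene as Mnd1-ps / Mnd1, with a step of -0.53 ± 0.11 (SE, limma adjusted p = 0.0996) and a 96 h difference of -1.13.

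In the same step, 22 of 49 measured genes of the mitosis and G2/M list were called lower and 0 higher, with a median of -0.76, and 16 of 42 genes of DNA replication were lower and 0 higher, with a median of -0.72. At 96 h, 48 of the 49 and 42 of the 42 met the size and array conditions as lower, both with a median of -2.84. Top2a is a member of the first list through its own cluster. Of 15 measured tubulin genes, 0 were called by limma in that step, with 9 at an unadjusted p under 0.05 (median -0.48), and 6 met the conditions as lower at 96 h. The medians of these lists had the same sign as the Top2a / Hibadh, Zfp646 / Tubb4b, Hjurp / 6430706D22Rik and Mnd1-ps / Mnd1 rows. What share of cells in the sorted fraction was outside G1 was not measured here, and its part in these rows was not tested.

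**Figure D3:**
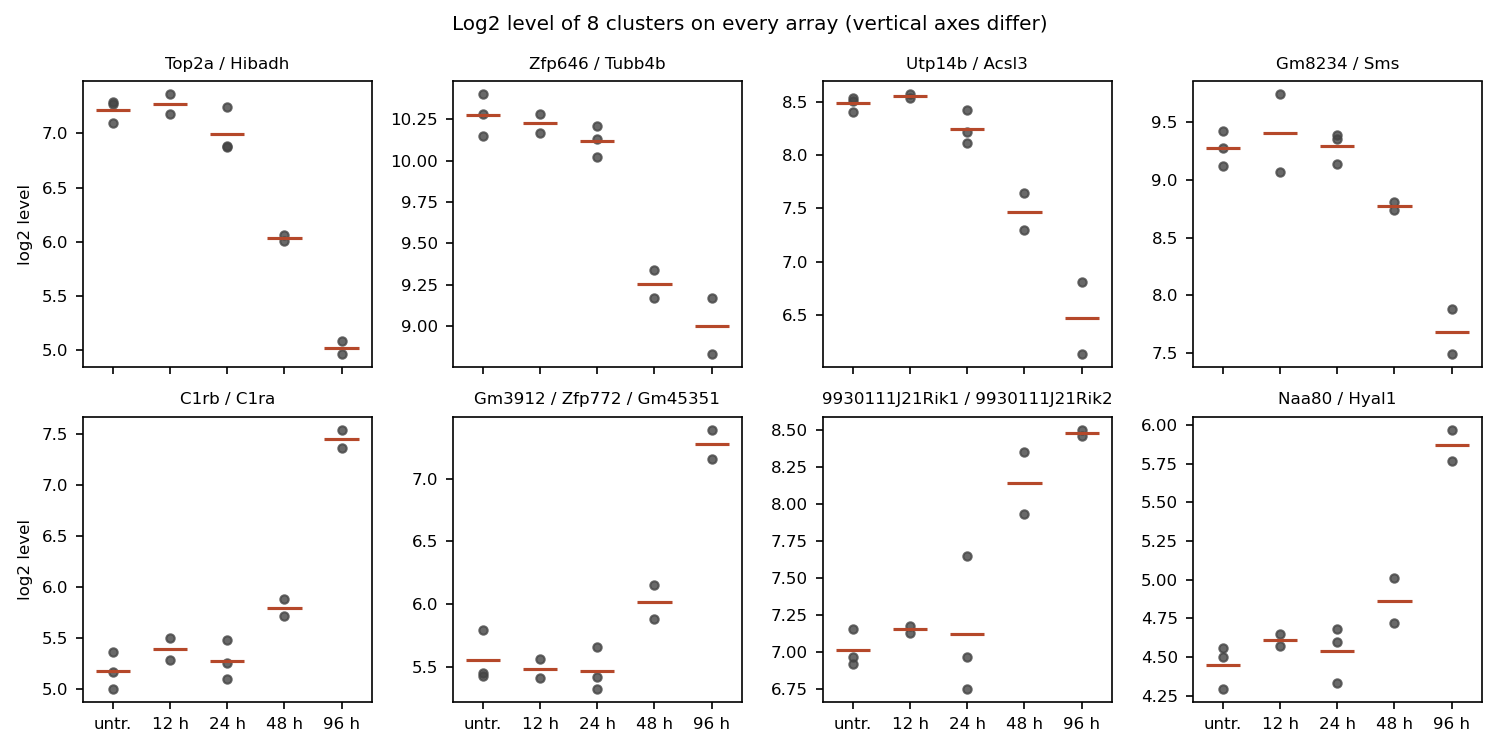
Log2 level (vertical axis, a scale for each panel) of 8 clusters on every array, 1 point per array and a red line at the group mean, for untreated cells and 12, 24, 48 and 96 h of DFMO (horizontal axis). Upper panels show rows that were lower at 96 h, from Top2a / Hibadh at -2.21 to Zfp646 / Tubb4b at -1.28, and lower panels rows that were higher, led by C1rb / C1ra at 2.27.

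Rows that name spermine synthase or S-adenosylhomocysteine hydrolase, enzymes close to the pathway that DFMO blocks, were among the lower rows. A link of these rows to that pathway was not tested. Gm8234 / Sms had levels on the cluster 10604844 of 9.28, 9.12 and 9.42 in untreated cells, 9.07 and 9.74 after 12 h, 9.39, 9.14 and 9.35 after 24 h, 8.81 and 8.74 after 48 h and 7.49 and 7.88 after 96 h. The 12 h arrays lay on either side of the untreated range, the 48 h arrays lay below all earlier ones, and the 96 h arrays lay lowest, 1.59 below untreated cells (3.00-fold). Its cluster 10607524 had levels of 8.81, 8.68 and 8.91 in untreated cells, 8.61 and 9.22 after 12 h, 8.92, 8.70 and 8.84 after 24 h, 8.34 and 8.25 after 48 h and 7.14 and 7.41 after 96 h. That cluster kept the same order of groups and differed by -1.52. Steps from 24 h to 48 h were -0.52 for both, with standard errors of 0.19 and 0.17 and limma adjusted p of 0.415 and 0.297, so neither passed. Sms and Gm8234, which is annotated as a pseudogene, were named together in both clusters.

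Ahcy breaks down S-adenosylhomocysteine, the product of methyl transfer, and Gm4737 is a gene on another chromosome. The 3 clusters of Ahcy / Gm4737 differed by -1.09, -1.07 and -1.06 at 96 h. On the cluster 10439762 the levels were 10.09, 10.18 and 10.26 on the untreated arrays, 10.10 and 10.19 on the 12 h arrays, 9.83, 10.13 and 10.06 on the 24 h arrays, 9.62 and 9.81 on the 48 h arrays and 9.16 and 9.05 on the 96 h arrays. The 48 h arrays were just below all earlier ones and the 96 h arrays clearly below those. Steps at 48 h were -0.28, -0.29 and -0.29, with limma adjusted p from 0.352 to 0.522. The annotation's RefSeq accessions in these rows were those of Ahcy alone.

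RNA-binding and DNA repair proteins made up 6 of the lower clusters. Rbmx encodes hnRNP G, a splicing regulator encoded on the X chromosome, and Rbmxl1 its intronless copy elsewhere. The cluster 10579830 of Rbmxl1 / Rbmx had levels of 9.73, 9.83 and 9.84 without drug, then 9.64 and 9.70 (12 h), 9.71, 9.37 and 9.61 (24 h), 9.39 and 9.18 (48 h) and 8.50 and 8.28 (96 h). The fall was mostly after 48 h: the 48 h arrays overlapped the 24 h arrays and the 96 h arrays lay below both. Its 96 h difference was -1.41. The cluster 10414256 had levels of 9.73, 9.79 and 9.82 on the untreated arrays, 9.61 and 9.69 on the 12 h arrays, 9.74, 9.34 and 9.59 on the 24 h arrays, 9.41 and 9.19 on the 48 h arrays and 8.59 and 8.37 on the 96 h arrays. Its 96 h difference was -1.30, again with the 48 h arrays overlapping the 24 h arrays, and the third cluster, 10580986, had -1.12. Steps at 48 h were -0.28, -0.26 and -0.22 (limma adjusted p from 0.462 to 0.599).

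Rbm14 is a nuclear coactivator and paraspeckle protein, and its row Gm21992 / Rbm14 shared 1 start site, with 250 identical window bases. Levels were 8.73, 8.62 and 8.60 in untreated cells, 8.44 and 8.46 after 12 h, 8.52, 8.34 and 8.30 after 24 h, 8.20 and 8.01 after 48 h and 7.15 and 7.27 after 96 h. Arrays at 12 h were already below all untreated arrays by a little, and the 96 h arrays were the lowest. The 96 h difference was -1.44 and the step at 48 h -0.28 ± 0.09 (SE, limma adjusted p = 0.265). Tdg encodes thymine DNA glycosylase, a base excision repair enzyme, and Tdg-ps2 is its pseudogene. The chosen Tdg-ps2 / Tdg clusters differed by -1.05 and -1.01 at 96 h and by -0.84 and -0.82 already at 48 h, and their steps from 24 h were -0.62 ± 0.12 (SE, limma adjusted p = 0.0658) and -0.58 ± 0.13 (SE, limma adjusted p = 0.107).

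Acsl3, which activates long-chain fatty acids by joining them to coenzyme A, shared a row with Utp14b, a retrogene that lies inside it and is known for its role in male germ cells. Utp14b / Acsl3 had levels of 8.51, 8.41 and 8.54 on the untreated arrays, 8.54 and 8.57 on the 12 h arrays, 8.11, 8.42 and 8.22 on the 24 h arrays, 7.64 and 7.30 on the 48 h arrays and 6.13 and 6.81 on the 96 h arrays. Untreated and 12 h arrays lay together, the 48 h arrays lay below them, and the 96 h arrays were lowest but differed from each other. The row was 2.01 lower at 96 h (4.04-fold), and the step at 48 h was -0.78 ± 0.18 (SE, limma adjusted p = 0.129). Genes of cholesterol synthesis, the lipid list examined, had 13 of 20 called lower in that step and 0 higher, with a median of -1.12.

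The microRNA host row had the widest spread of the untreated arrays among the 44 clusters, with an SD of 0.62 (n = 3) against a median of 0.12. Levels of Mir92-1 / Mir17hg were 5.07, 5.14 and 6.17 without drug, then 5.23 and 6.04 (12 h), 4.96, 5.64 and 5.33 (24 h), 4.98 and 4.95 (48 h) and 4.60 and 4.18 (96 h). Untreated replicate 3 and 12 h replicate 2, 2 of the arrays that stood apart, were about 0.8 or more above the other arrays of their groups, and the 96 h arrays were below all earlier ones. The 96 h difference was -1.07, and -0.72 without untreated replicate 3, under the size limit. The step at 48 h was -0.34 ± 0.36 (SE, limma adjusted p = 0.921).

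Neighbouring 1-symbol clusters of the same transcript are shown beside it. At 96 h the differences were -0.36 for Mir17hg, -0.55 for Mir17, -1.36 for Mir18, -1.01 for Mir19a, -1.24 for Mir20a and -0.94 for Mir19b-1. Steps from 24 h to 48 h were all below 0, from -0.44 for Mir18 to -0.23 for Mir19b-1, and 0 passed (adjusted p from 0.369 to 0.962). The untreated arrays spread over 0.57 (SD, n = 3) for Mir19b-1 and 0.16 for Mir17hg.

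**Figure D4:**
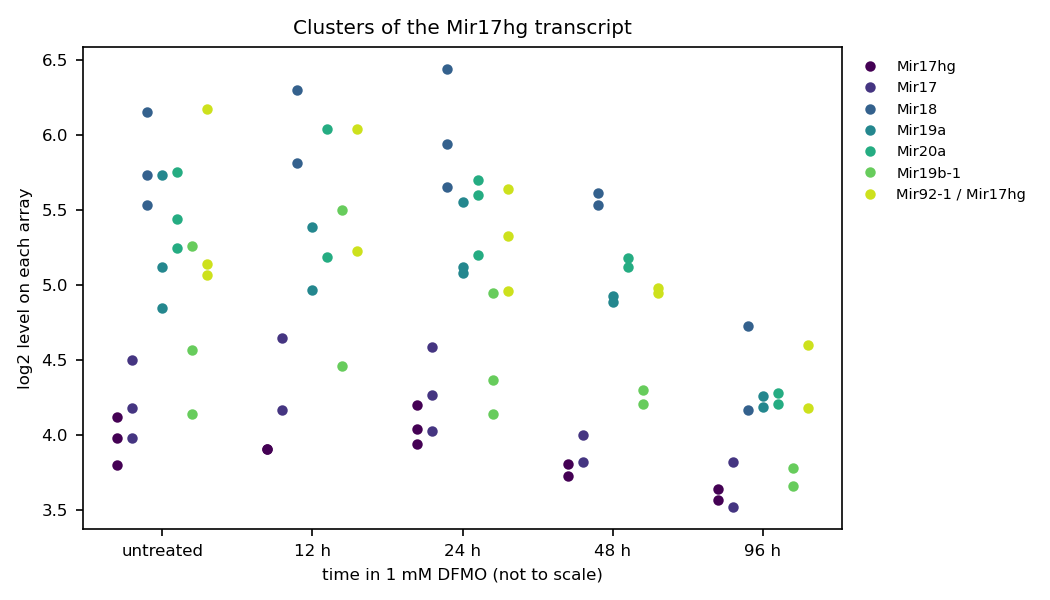
Log2 level on each array (vertical axis) of the 7 clusters annotated to the miR-17-92 host transcript, 1 point per array and 1 colour per cluster, for untreated cells and 12, 24, 48 and 96 h of DFMO (horizontal axis, not to scale). The 96 h points of every cluster but Mir17 lie below the earlier points of the same colour. Differences from untreated cells were -1.36 for Mir18, -1.01 for Mir19a, -1.24 for Mir20a and -1.07 for Mir92-1 / Mir17hg. They were smaller for Mir19b-1 (-0.94) and Mir17hg (-0.36).

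Apol9a / Apol9b, a pair of interferon-induced apolipoproteins L with 231 window positions at 100% identity, completed the lower rows together with Gm4983 / 2410018L13Rik. Levels of Apol9a / Apol9b were 5.86, 5.14 and 4.92 in untreated cells, 4.75 and 5.34 after 12 h, 4.56, 5.49 and 4.73 after 24 h, 4.20 and 4.19 after 48 h and 4.14 and 4.20 after 96 h. The untreated arrays differed among themselves by nearly a log2 unit, and from 48 h on all 4 arrays lay between 4.14 and 4.20, close to the floor. Without untreated replicate 1 the 96 h difference of -1.14 became -0.86. A second cluster of the pair was outside the limit at -0.83. Gm4983 / 2410018L13Rik, gene models with no known role given here, differed by -1.11 at 96 h and by -0.97 without untreated replicate 3.

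Genes of complement, antigen processing and chemokine signalling, with the 9930111J21Rik pair, made up 7 of the higher clusters, in 4 symbol sets. C1ra and C1rb encode the C1r protease of the classical complement pathway in mouse. Levels of C1rb / C1ra were 5.37, 5.17 and 5.00 on the untreated arrays, 5.50 and 5.29 on the 12 h arrays, 5.10, 5.26 and 5.48 on the 24 h arrays, 5.88 and 5.72 on the 48 h arrays and 7.36 and 7.54 on the 96 h arrays. Both 48 h arrays were above all earlier ones, and both 96 h arrays were higher again by more than 1.4. This was the largest positive difference among the rows, 2.27 at 96 h (4.82-fold), and the step from 24 h to 48 h was 0.52 ± 0.14 (SE, limma adjusted p = 0.193).

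Psme2, a subunit of the PA28 proteasome activator, shared a row with its copy Psme2b. Levels of Psme2b / Psme2 were 6.83, 6.18 and 6.79 without drug, then 7.22 and 7.25 (12 h), 7.21, 7.20 and 7.50 (24 h), 8.0 and 7.62 (48 h) and 8.05 and 8.21 (96 h). Here the 12 h and 24 h arrays were already above all untreated arrays, and the difference reached 1.53 at 96 h. Of the rows it had the largest differences at 12 h (0.64) and 24 h (0.70). Its step at 48 h was 0.51 ± 0.20 (SE, limma adjusted p = 0.453).

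The pair 9930111J21Rik1 / 9930111J21Rik2, gene models that share nearly all of their promoter windows, had the largest step of any higher row. On the cluster 10385526 the levels were 6.97, 6.92 and 7.16 in untreated cells, 7.18 and 7.13 after 12 h, 6.97, 6.75 and 7.65 after 24 h, 8.35 and 7.93 after 48 h and 8.46 and 8.50 after 96 h. The 24 h arrays spread widely, with replicate 3, an array that stood apart, at 7.65, and both 48 h arrays were above it. The cluster was 1.46 higher at 96 h, and its step at 48 h was 1.02 ± 0.23 (SE, limma adjusted p = 0.117), or 1.28 without 24 h replicate 3 (adjusted p = 0.0259). The other cluster, 10385513, had levels of 6.76, 6.73 and 7.06 without drug, then 7.07 and 7.01 (12 h), 6.85, 6.62 and 7.48 (24 h), 8.18 and 7.80 (48 h) and 8.20 and 8.32 (96 h). Its order of groups was the same, with a 96 h difference of 1.41 and a step of 1.01 ± 0.23 (SE, limma adjusted p = 0.119), or 1.25 without that array (adjusted p = 0.0346). With all 3 arrays that stood apart left out, neither cluster was called (1.28 and 1.25, limma adjusted p = 0.0595 for both). In the step from 24 h to 48 h, limma called 0 of 27 measured genes of the interferon response and MHC class I (median -0.01). In that test 1 gene had an unadjusted p under 0.05. At 96 h, 1 gene met the conditions as higher, and the median difference was 0.03. Array medians of this list lay between 3.71 and 4.14, near the floor, which limits what the list can show.

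Ccl27a encodes a chemokine for T cells homing to skin, and Ccl27b, Gm2506, Gm13306 and LOC100861978 are copies or gene models named with it. LOC100861978 / Ccl27b / Gm2506 / Gm13306 / Ccl27a had 3 clusters. Levels on the cluster 10512315 were 4.49, 4.34 and 4.30 on the untreated arrays, 4.44 and 4.37 on the 12 h arrays, 4.51, 4.53 and 4.44 on the 24 h arrays, 4.95 and 4.55 on the 48 h arrays and 5.55 and 5.66 on the 96 h arrays. Levels to 24 h were close to the floor, 48 h replicate 1 was above them and replicate 2 barely so, and the 96 h arrays were about 1 higher. Its 96 h difference was 1.23, and the pair of identical clusters had 1.01, or 0.96 without untreated replicate 3. Steps at 48 h were 0.26 ± 0.11 and 0.18 ± 0.10 (SE, limma adjusted p = 0.521 and 0.72).

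Enzymes of sugar and hyaluronan breakdown were in 2 higher rows. Hyal1 is a lysosomal hyaluronidase, and Naa80, which lies at the same place, is the acetyltransferase of actin. Levels of Naa80 / Hyal1 were 4.50, 4.29 and 4.56 without drug, then 4.65 and 4.57 (12 h), 4.33, 4.68 and 4.60 (24 h), 4.72 and 5.01 (48 h) and 5.77 and 5.97 (96 h). Arrays to 24 h were between 4.29 and 4.68, and the 96 h arrays more than 1 above them. The 96 h difference was 1.42 and the step at 48 h 0.34 ± 0.13 (SE, limma adjusted p = 0.455). Gnpda1 converts glucosamine-6-phosphate to fructose-6-phosphate, and Gm8615 / Gnpda1 had levels of 6.13, 5.79 and 6.13 in untreated cells, 6.26 and 6.30 after 12 h, 6.42, 6.62 and 6.60 after 24 h, 6.84 and 7.01 after 48 h and 7.40 and 7.32 after 96 h. Its group means rose at each time, with all 24 h arrays above all untreated arrays, to 1.34 at 96 h, and the step at 48 h was 0.38 ± 0.11 (SE, limma adjusted p = 0.246). Second clusters of both sets were outside the limit, at 0.91 and 0.70. In the lysosome list, 1 of 27 measured genes was called higher at 48 h and 0 lower (median 0.19), and 9 met the 96 h conditions as higher.

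Zinc finger rows were the most numerous kind, with 9 of the 23 higher clusters in 8 symbol sets, and were put together after their values were seen. These genes belong to clustered families that arose by repeated duplication and mostly encode DNA-binding repressors with a KRAB domain. Their 96 h differences ran from 1.01 to 1.72 with a median of 1.21, and steps at 48 h from 0.24 to 0.55 with a median of 0.37; 0 of 9 passed limma's test (adjusted p from 0.193 to 0.76) and 5 had an unadjusted p under 0.05. The 1-symbol clusters with a Zfp name, 364 in all, had medians of 0.22 at 96 h and 0.06 for the step, with 1 called higher and 0 lower. Over all 40 several-symbol clusters with a Zfp symbol, of 1621 with several symbols, the medians were 0.59 and 0.23, with 0 called higher and 2 lower, both of them Zfp646 / Tubb4b. The 40 do not hold Gm14326 / Gm14403 and Gm3912 / Gm45351, which name no Zfp symbol. Neither set was chosen by its 96 h values, whereas the 9 rows were, so the larger 96 h median of the 9 follows from the rule.

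The largest of these were both clusters of Gm3912 / Zfp772 / Gm45351. Levels on the cluster 10549932 were 5.45, 5.43 and 5.79 on the untreated arrays, 5.56 and 5.41 on the 12 h arrays, 5.42, 5.32 and 5.66 on the 24 h arrays, 6.15 and 5.88 on the 48 h arrays and 7.16 and 7.39 on the 96 h arrays. Arrays to 24 h did not separate from untreated arrays, the 48 h arrays lay above them and the 96 h arrays more than 1 higher. The cluster 10559919 had 5.39, 5.40 and 5.78 in untreated cells, 5.54 and 5.34 after 12 h, 5.39, 5.29 and 5.62 after 24 h, 6.11 and 5.80 after 48 h and 7.0 and 7.22 after 96 h. Differences at 96 h were 1.72 and 1.59, and the related row Gm3912 / Gm45351 had 1.21. Gm10509 / Zfp983 had levels of 5.29, 5.07 and 5.38 on the untreated arrays, 5.20 and 5.28 on the 12 h arrays, 5.20, 5.18 and 5.44 on the 24 h arrays, 6.0 and 5.55 on the 48 h arrays and 6.46 and 6.53 on the 96 h arrays. Its 48 h and 96 h arrays lay above all earlier ones, with a difference of 1.25 at 96 h and a step of 0.50 ± 0.14 (SE, limma adjusted p = 0.218).

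Rex2 / Zfp981 / Zfp980 / Zfp600 / Zfp987 / Zfp979 had levels of 6.91, 6.87 and 6.85 without drug, then 6.66 and 7.32 (12 h), 7.16, 7.25 and 7.22 (24 h), 7.38 and 7.78 (48 h) and 7.88 and 8.36 (96 h). The 24 h and 12 h arrays overlapped, and the 48 h arrays lay above both, by little for replicate 1. The row differed by 1.24 at 96 h. A row of 18 symbols, Gm4724 / Gm14410 / Gm14305 / Gm14308 / Gm2026 / Gm14434 / Gm14326 / Gm14391 / Gm14393 / Zfp970 / Zfp971 / Gm6710 / Gm14322 / Gm14403 / Zfp931 / Gm14325 / Gm14440 / Gm14327, had 1.18. A row of 14, Zfp965 / Zfp967 / Zfp966 / Gm14326 / Gm14391 / Zfp970 / Zfp971 / Gm6710 / Zfp973 / Gm14403 / Zfp931 / Gm14325 / Gm14440 / Gm14327, had 1.08, and Gm14326 / Gm14403 had 1.01. These 3 rows share Gm14326 and Gm14403 and are not separate genes. Zfp442 / Zfp937 / 3300002I08Rik had 1.07.

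The remaining higher rows held 5 sets unrelated to each other. Rbmxl1, named in the Gm3435 / 9030025P20Rik / Ermard / Rbmxl1 row, also stands in the 3 lower clusters of Rbmxl1 / Rbmx. The annotation's RefSeq accessions in that higher row were those of the other 3 symbols. Snurf / Snrpn, the imprinted locus that encodes a splicing protein, had levels of 4.29, 4.27 and 4.44 in untreated cells, 4.36 and 4.37 after 12 h, 4.29, 4.18 and 4.47 after 24 h, 4.53 and 4.32 after 48 h and 5.73 and 5.20 after 96 h. It was near the floor to 48 h, with the step 0.12 ± 0.15 (SE, limma adjusted p = 0.943), and was 1.13 higher at 96 h. Dzip1, a protein of primary cilia, and Cldn10, a tight junction protein, shared a row whose difference was 0.08 at 48 h and 1.09 at 96 h. The Gm3435 / 9030025P20Rik / Ermard / Rbmxl1 row had 1.23 at 96 h with untreated levels of 5.72, 5.37 and 6.46, the last from an array that stood apart, and 1.54 without that array. LOC100862456 / Polr2k, the latter a small subunit shared by the RNA polymerases, had 1.11, or 1.32 without the same array, and Armcx5 / Gprasp1, the latter a sorting protein of receptors, had 1.00 with a step of 0.39 ± 0.09 (SE, limma adjusted p = 0.114).

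Some symbols of the rows also had a cluster of their own, which reads 1 gene by annotation. There were 30 such clusters with different values, for 25 of the 88 symbols and 18 of the 32 sets. Of these, 6 met the 96 h conditions in the direction of the row, 1 met them against it, and 23 did not meet them, 16 of the 30 being under 0.5 either way. Between 24 h and 48 h limma called 0 of the 30, with 6 at an unadjusted p under 0.05. These values are a description and the differences between a row and an own cluster were not tested. Several of the own clusters lay near the floor in untreated cells, where a change is hard to see.

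Top2a had 2 clusters of its own, at -3.12 and -0.40 at 96 h, and Hibadh 2, at 0.38 and -0.47, beside -2.21 and -1.52 for their shared rows. The first Top2a cluster had a step of -0.60 ± 0.17 at 48 h (SE, limma adjusted p = 0.21). Zfp646 alone was 1.20 higher at 96 h, against -1.28 and -1.07 for Zfp646 / Tubb4b. Rbmx alone was 0.45 higher, against -1.41, -1.30 and -1.12 for Rbmxl1 / Rbmx. In both sets the row and the own cluster had opposite signs.

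In other sets too the symbols of a row had different values alone. Dzip1 alone was 1.37 higher and its own Cldn10 clusters stood at -0.06 and -0.07, with the shared row at 1.09. C1ra alone had 0.62 and Psme2 alone 0.51, against 2.27 and 1.53 for the rows with their copies. Polr2k alone had -0.06 and Armcx5 alone 0.29. Gm4983 alone had 0.05 and -0.35 and 2410018L13Rik alone -0.02, against -1.11 for Gm4983 / 2410018L13Rik. Untreated means were 3.41 and 4.63 for the Gm4983 clusters and 3.40 for 2410018L13Rik. The first and last of these means were near the floor, where a fall could hardly show. Ermard had 1.02 and 0.55. Among the zinc fingers, Zfp979 (1.17), Zfp971 (1.08) and Zfp931 met the conditions alone, the last with the largest difference of these. Zfp983 (0.78), Zfp600 (0.67), Zfp772 (0.60), Zfp980 (0.34) and Zfp442 (0.16) did not. Other symbols named in zinc finger rows did not meet them either: Gm14403 (0.88), 3300002I08Rik (0.23) and Gm14410 (0.04). Own clusters of Cldn10, C1ra, Zfp980, Gm14410 and 3300002I08Rik were also near the floor in untreated cells. Their untreated means were 3.53 and 3.68, 4.05, 3.33, 4.05 and 4.11 in that order.

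**Figure D5:**
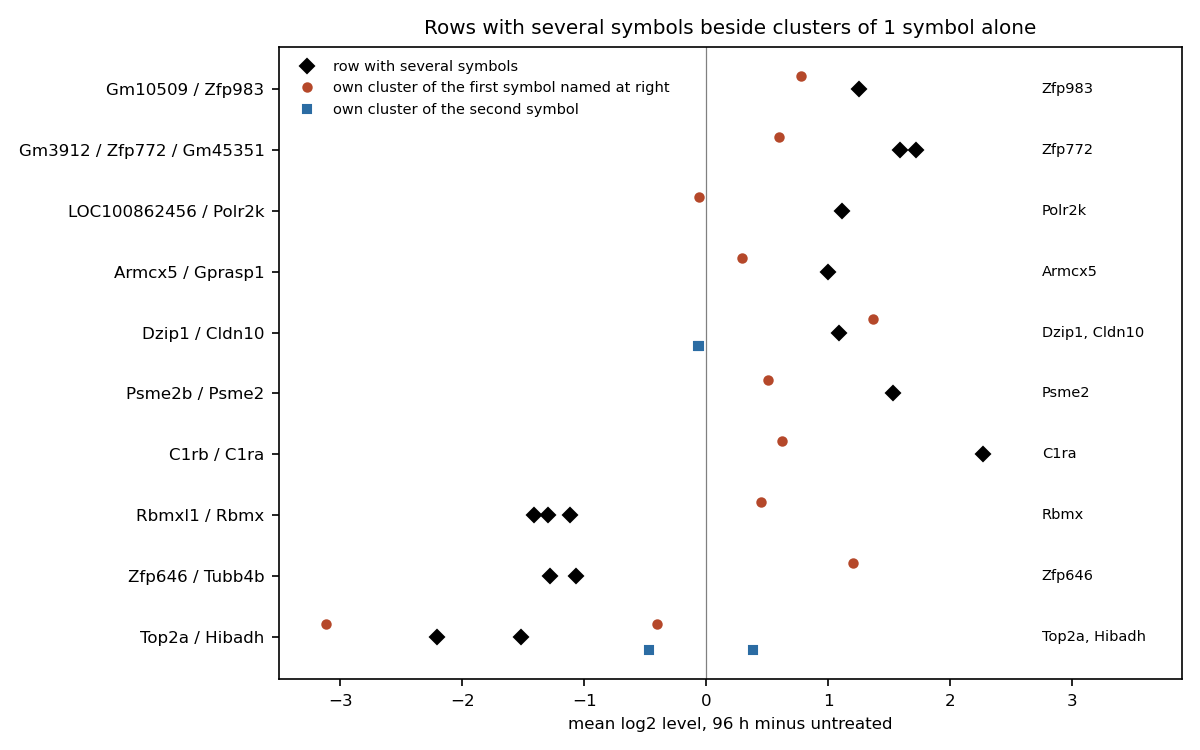
Mean log2 level at 96 h minus untreated (horizontal axis) for 10 symbol sets (vertical axis), with black diamonds for the rows that name several symbols and coloured points for clusters annotated to 1 of those symbols alone, named at right. The own clusters of Zfp646 and Rbmx (1.20 and 0.45) lie on the other side of 0 from their rows, and Dzip1 (1.37) lies beside its row while the Cldn10 clusters (-0.06 and -0.07) lie near 0.

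Among the remaining lists examined in the step from 24 h to 48 h, 5 of 32 p53 target genes were called higher and 0 lower (median 0.25), and 1 of 28 genes of glutathione and xenobiotic enzymes was called lower and 0 higher (median 0.00). No symbol of the chosen rows is in either list.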

How the data were processed

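The deposited values are log2 levels per transcript cluster and array. The submitters' processing notes name RMA and Partek without versions; RMA removes background, equalises the arrays' distributions and combines the probes of a cluster. A shift shared by all transcripts is therefore hidden, and changes to or from low levels come out too small. The array's genome build and probe sequences are not given in the sources used here, so clusters have no coordinates.

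Symbols came from the platform annotation and were looked up in the RefSeq table of GRCm38.p6. Rows and gene lists were chosen with earlier results of these data known, and roles after values were seen. Group means were modelled over all 12 arrays and 35399 clusters with limma 3.58.1 in R 4.3.3 (lmFit, eBayes); two-sided p-values were adjusted by Benjamini and Hochberg over all clusters and called under 0.05. Only the steps 24 h to 48 h and 12 h to 24 h were tested, because their estimates use no array of the rule; their errors draw on the spread within all 5 groups, so the model was also fitted to the 12, 24 and 48 h arrays alone, an alternative chosen after seeing the data. The procedure was tested on simulated data. Values of every array were given for the 10 largest differences in each direction and for the rows called, and for further rows chosen after their values were seen. A list gene was read from its 1-symbol cluster with the highest mean. The alternatives tried were other sizes of difference, arrays left out, filters, centring, weights, a robust trend and a replicate block. Promoter windows were aligned locally with Biopython 1.88. Figures used matplotlib 3.10.9 in Python 3.11.15.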

Additional observations from a re-analysis of the deposited data

How the results depend on the processing

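The rule gave 85 clusters at a difference of at least 0.8 and 9 at 1.5, and 39 to 57 when 1 untreated or 96 h array was left out. For the step from 24 h to 48 h, limma called 217 of 35399 clusters. It called 610 with the 12 h and 24 h arrays as 1 group, 31 with only the 12, 24 and 48 h arrays and 29 without the 3 arrays that stood apart (all 3 chosen after seeing the data), 392 with array weights, 132 with a robust trend, and 4 to 90 with 1 array of the step left out. Fitted to the 2 groups alone it called 0, and fitted to several-symbol clusters only 4. Of the chosen rows, 4 were called, against 12, 0, 1, 8, 4 and 0 to 5 in the same order, 0 with the 2 groups alone, and 7 with the 3 arrays as a block (chosen after seeing the data). Dzip1 / Cldn10 ran from -0.02 to 0.16 with 1 array left out, and changed sign without 48 h replicate 1. With equal replicate numbers as a block, 194 clusters and 5 chosen rows were called, among them both 9930111J21Rik1 / 9930111J21Rik2 clusters (1.18 and 1.19), while the Zfp646 / Tubb4b cluster 10519488 was lost (adjusted p = 0.0516). The 24 h and 48 h groups share 2 numbers, whose deviations correlated at 0.289 and 0.309 across clusters, and whether the numbers pair the arrays could not be settled. Centring the arrays gave 55 higher and 144 lower calls. Of 704 combinations of a chosen row and a setting for this step, 659 kept direction and side of the threshold, 25 lost and 19 gained a call. For 12 h to 24 h, 0 chosen rows were called in 15 other settings. Signals near the floor limit what low rows can show, and 2 arrays a group limit the rest.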
